A study of Nasonia vitripennis x Nasonia giraulti with 2 samples.

Results

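Lone CpGs were CpGs listed in both WGBS-seq libraries that had no other CpG listed in either library within 200 bp on either side, and at least 1 CpG listed in both libraries within 2000 bp on each side of the same scaffold. The rule used positions and no methylation value. It found 3783 lone CpGs among the 5531492 CpGs listed in both libraries, on 732 of 2683 scaffolds, and the remaining 5527709 shared CpGs are called other CpGs here. The libraries came from reciprocal F1 hybrids of Nasonia vitripennis (Nv, strain AsymCX) and Nasonia giraulti (Ng, strain R16A), 2 parasitoid wasps. F1VG females came from Nv mothers mated to Ng fathers and F1GV females from Ng mothers mated to Nv fathers, with no treatment named for either. Each library was made from the whole bodies of a pool of 50 adult females taken 24 h after eclosion, so its values average over tissues and individuals. There was 1 library per cross, so no value has a replicate error, and tests between F1VG and F1GV compare the reads of 2 libraries rather than the crosses.

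DNA methyltransferases add a methyl group to the cytosine of CpG dinucleotides. In insects such as Nasonia this mark is sparse and is found mostly in the exons of a subset of genes, while most of the genome is unmethylated. A methylated cytosine is prone to deaminate to thymine, and methylated genes of insects are known to hold fewer CpGs than sequence composition would give. In bisulfite sequencing an unmethylated cytosine is converted and read as T, so the methylation level of a CpG is the percentage of its reads that stay unconverted. Reads that carry a species-specific variant were assigned to the V allele (Va, from Nv) or the G allele (Ga, from Ng), which gives a total, a V and a G level for every CpG.

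The nearest listed CpG lay at a median of 285 bp from a lone CpG (quartiles 233 and 395, range 201 to 1801 bp). The single-end reads were shorter than 200 bp, so no read could cover a lone CpG and another listed CpG, and the level of a lone CpG and the levels of its neighbours came from different reads. The surroundings were also poor in listed CpGs, with a median of 43 within 2000 bp on either side (quartiles 24 and 70) against 196 (145 and 235) for other CpGs. Lone CpGs were covered by a median of 38 reads in F1VG and 50 in F1GV, against 48 and 58 at other CpGs. The median was 17 V and 15 G reads in F1VG, and 22 V and 20 G reads in F1GV. V reads made up 52.2% of the allele-assigned reads of lone CpGs in F1VG and 51.9% in F1GV, against 50.8% and 50.6% at other CpGs.

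Being listed depended on coverage, since a CpG entered a file only with at least 8 V and 8 G reads, and a CpG without them could lie unseen beside a lone one. Judged by the F1VG file alone 8961 shared CpGs would have been lone, and only 42.2% of them still were once the deeper F1GV file was used as well. Judged by the F1GV file alone there were 4488, of which 84.3% stayed lone. Lone here therefore means alone among covered CpGs, and without the genome sequence a true lack of CpGs and a lack of covered CpGs cannot be told apart. A further 2309 CpGs without a listed CpG within 200 bp lacked a shared CpG within 2000 bp on at least 1 side and were not taken.

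Lone CpGs were methylated more often than other CpGs, in both libraries and on both alleles. In F1VG 1314 of 3783 lone CpGs reached a total level of at least 10%, a share of 34.7% (33.2 to 36.3%, 95% Wilson interval), and in F1GV 1275 did, a share of 33.7% (32.2 to 35.2%). The same level was reached by 2.53% of other CpGs in F1VG and 1.67% in F1GV. The lone share was thus 13.8 times the other share in F1VG (95% Katz interval 13.2 to 14.4) and 20.2 times in F1GV (19.3 to 21.2). Other CpGs within 2000 bp of a lone CpG reached 10% more often than other CpGs in general, at 10.3% in F1VG and 9.58% in F1GV, and against these the lone share was 3.36 times as high (3.20 to 3.52) in F1VG and 3.52 times (3.36 to 3.69) in F1GV. These intervals treat CpGs as independent and cover counting only.

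The excess was larger at high levels and nearly equal in the 2 libraries there. A total level of at least 50% was found at 876 lone CpGs in F1VG (23.2%) and at 858 in F1GV (22.7%), against 0.687% and 0.680% of other CpGs. The ratio was 33.7 (31.8 to 35.7) in F1VG and 33.3 (31.4 to 35.4) in F1GV. Against the other CpGs within 2000 bp of a lone CpG, of which 5.76% and 5.64% reached 50%, it was 4.02 (3.78 to 4.28) in each library. At a level of at least 80% the shares were 12.2% and 11%, against 0.393% and 0.364%. The ratio at 10% differed between the libraries mainly through the other CpGs, of which 85483 in F1VG and 38546 in F1GV lay from 10 to 20%, while 166 and 146 lone CpGs did.

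Both alleles took part. The V level was at least 50% at 24.4% of lone CpGs in F1VG and 23.5% in F1GV, against 0.755% and 0.772% of other CpGs. The G level was at least 50% at 23.3% and 23%, against 0.701% and 0.671%. The mean V level of lone CpGs was 23.4% in F1VG and 22.6% in F1GV, and the mean G level was 22.3% and 22.0%, so the alleles were close to each other in both libraries. Over other CpGs these means lay between 2.29% and 2.35%.

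**Figure D1:**
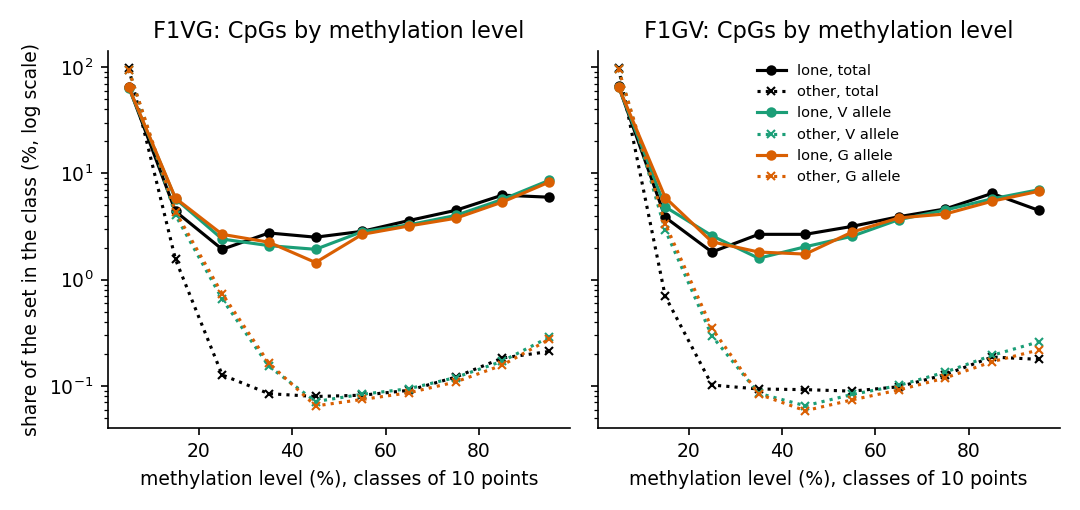
Share of lone CpGs (circles, solid lines) and other CpGs (crosses, dotted lines) in classes of 10 percentage points of methylation level, with a logarithmic vertical axis, for the total, V and G levels in F1VG (left) and F1GV (right). Of the lone CpGs, 65.3% in F1VG and 66.3% in F1GV had a total level below 10%, and above it the lone curves lie well over the curves of other CpGs and rise again toward high levels.

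The levels of lone CpGs fell into a large low group and a smaller high one. No methylated read at all was seen at 1413 lone CpGs in F1VG (37.4%) and 1043 in F1GV (27.6%). From 20 to 30% there were 73 in F1VG and 69 in F1GV, and from 80 to 90% there were 236 and 245. All 4 allele levels (V and G in both libraries) were below 10% at 1916 lone CpGs (50.6%), and all 4 were at least 50% at 677 (17.9%, 16.7 to 19.1%). Other CpGs had all 4 alleles at or above 50% in 0.539% of cases. Lone CpGs that were methylated on both alleles in both crosses therefore made up most of the highly methylated ones.

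The pooled level of 3 lone CpGs was 100%. At SCAFFOLD4 position 4840904, 45 of 45 reads were methylated in F1VG and 59 of 59 in F1GV, with 19 V and 26 G reads in the first library and 29 and 30 in the second. At SCAFFOLD1 position 1411781 the counts were 21 of 21 and 26 of 26, and at SCAFFOLD8 position 206308 they were 17 of 17 and 27 of 27. Positions refer to scaffolds of the Nv genome version 1.0, and no annotation of that build was used, so whether these CpGs lie in exons or introns is not known. The shared CpGs on either side of the SCAFFOLD4 site, 231 and 456 bp away, were unlike each other, with total levels of 7.14% and 81.6% in F1VG and 0% and 75% in F1GV.

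The levels of a lone CpG were close in the 2 libraries. Over the 3783 lone CpGs, Pearson's r of the total level between F1VG and F1GV was 0.968 and Spearman's rho 0.725. Over the 1257 with a pooled level of at least 10% and more than 10 reads in each library they were 0.881 and 0.871. Other CpGs at a pooled level of at least 10% had slightly higher values, 0.898 and 0.888. The median absolute difference was 7.02 percentage points at these lone CpGs, against 7.97 at these other CpGs. These correlations describe CpGs, which are not replicates.

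The share of methylated CpGs changed with the distance to the nearest listed CpG. It was 1.66% in F1VG and 0.807% in F1GV where the nearest CpG was 2 to 5 bp away, and 22.5% and 21.5% at 51 to 100 bp. Just outside the rule, at 151 to 200 bp, it was 40.1% in F1VG and 39.2% in F1GV (2636 CpGs). Just inside, at 201 to 250 bp, it was 39.2% and 39.1% (1341 CpGs). The limit of 200 bp thus falls on a plateau and marks no step.

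**Figure D2:**
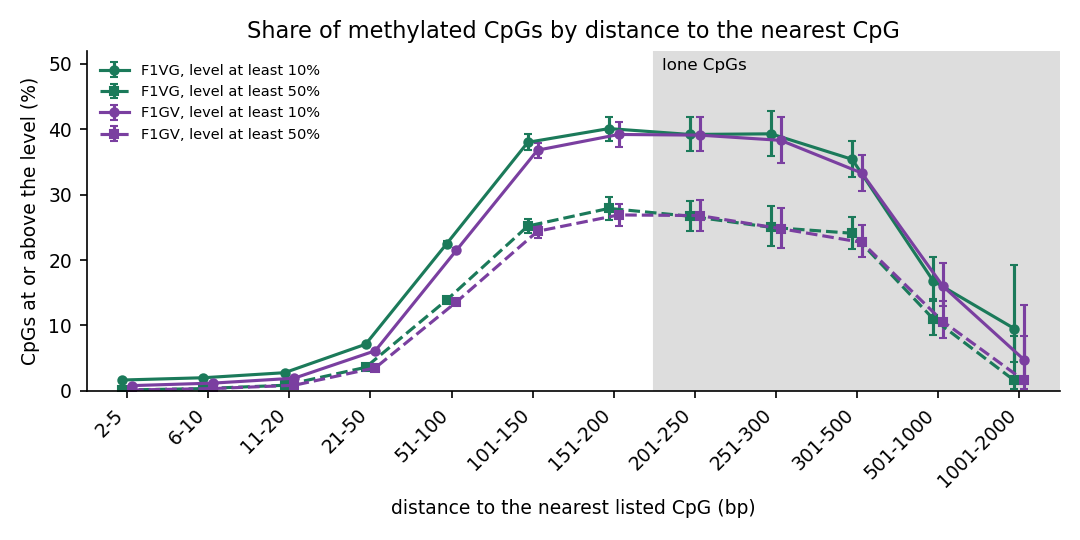
Percentage of shared CpGs at a total level of at least 10% (circles, solid) or 50% (squares, dashed) against the distance to the nearest listed CpG in bp, in F1VG (green) and F1GV (purple), for CpGs with a shared CpG within 2000 bp on each side. Bars are 95% Wilson intervals and the grey area holds the lone CpGs, whose share at 10% lies near 39% up to 300 bp and falls to 9.52% in F1VG and 4.76% in F1GV beyond 1000 bp.

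Within the lone CpGs the share fell with distance. It was 35.4% (32.7 to 38.2%) in F1VG and 33.3% (30.6 to 36.1%) in F1GV at 301 to 500 bp, and 16.8% (13.8 to 20.4%) and 16% (13.0 to 19.6%) at 501 to 1000 bp. In the class from 1001 to 2000 bp, 6 of 63 lone CpGs reached 10% in F1VG and 3 of 63 in F1GV. The most isolated lone CpGs were therefore the least often methylated ones. The CpG with the longest distance, SCAFFOLD671 position 17515 with its nearest listed CpG 1801 bp away, had 4 of 25 methylated reads in F1VG and 1 of 30 in F1GV. The next, at SCAFFOLD459 position 46114 and SCAFFOLD113 position 99946, had no methylated read in F1VG (0 of 21 and 0 of 34) and 3 each in F1GV (3 of 40 and 3 of 44).

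The share also differed with the scaffold, and scaffold number moved with how often CpGs were lone. The 50 scaffolds with the lowest numbers, whose listed positions reached 9425191, held 1670 lone CpGs, or 0.403 per 1000 shared CpGs. Of these 58.0% (55.6 to 60.3%) in F1VG and 56.9% (54.5 to 59.2%) in F1GV were methylated at 10% or more. On scaffolds numbered above 300, whose positions ended at 317556 or before, lone CpGs were more frequent, at 3.49 per 1000, and 11.3% (9.20 to 13.7%) and 9.54% (7.64 to 11.8%) were methylated. On scaffolds 51 to 100 the shares were 19.5% and 19.3%, and on the next 200 scaffolds they were 19.1% and 18.3%. Other CpGs showed no such fall, with 2.57% and 1.72% on scaffolds 1 to 50 and 2.88% and 1.90% above 300. The median depth of lone CpGs moved little with it, from 39 to 36 reads in F1VG and from 54 to 47 in F1GV. These scaffold groups were formed after earlier values were known, and the cause of the difference was not tested.

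On scaffolds 1 to 50 the share of methylated lone CpGs stayed high to longer distances. It was 58.0% in F1VG and 58.5% in F1GV at 201 to 250 bp, 59.0% and 56.4% at 301 to 500 bp, and 45.1% (36.3 to 54.3%) and 42.5% (33.8 to 51.7%) at 501 to 1000 bp. On the remaining scaffolds it was 18.9% and 18.3% at 201 to 250 bp, and 8.15% and 7.88% at 501 to 1000 bp. The fall with distance was thus seen in both groups. Lone CpGs on scaffolds above 50 were 645 of 1341 at 201 to 250 bp and 368 of 481 at 501 to 1000 bp. The part of this mix in the fall over all scaffolds was not tested. Scaffolds with at least 30 lone CpGs numbered 23, all among scaffolds 1 to 50, and held 1201 of the 3783 lone CpGs. The lone share ranged from 41.9 to 83.3% over them in F1VG (median 62.5%) and from 38.7 to 81.8% in F1GV (median 60.5%), and it lay above the share of other CpGs on all 23 in both libraries.

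Lone CpGs were also more often methylated than other CpGs at a like density of listed CpGs and at a like depth. With 51 to 100 listed CpGs within 2000 bp, 49.4% of the 1169 lone CpGs were methylated in each library, against 8.08% of other CpGs in F1VG and 7.35% in F1GV. With 1 to 10 listed CpGs the lone shares were 13.4% and 11.9%, against 4.52% and 3.71%. By depth, 28.3% of lone CpGs with 16 to 29 reads in F1VG were methylated, against 4.63% of other CpGs, and 40.6% with 70 reads or more, against 1.75%. In F1GV these shares were 21.9% against 3.15%, and 46.6% against 1.69%. The difference between lone and other CpGs had the same direction in each of these classes.

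Some checks bear on the limit set by coverage. CpGs that were lone in the F1VG file alone but had a neighbour in the F1GV file were methylated at 26% in F1VG and 24.1% in F1GV (5178 CpGs), less often than the 3783 CpGs that were lone in both. Where at least 20 CpGs were listed within 2000 bp and at most 10% of them in a single file, 29.4% (24.7 to 34.5%) of 330 lone CpGs were methylated in F1VG and 27.3% (22.7 to 32.3%) in F1GV, against 39.8% and 39% of the 2776 with as many listed CpGs and more than 10% of them in a single file. The ratio to other CpGs was 11.6 and 16.4 for the former. Where all listed CpGs within 2000 bp were in both files, 8 of 106 lone CpGs in F1VG and 7 of 106 in F1GV were methylated (7.55%, 3.87 to 14.2%, and 6.6%, 3.24 to 13.0%), and these had a median of only 8 listed CpGs around them. Both intervals hold the share of other CpGs with 1 to 10 listed CpGs around them, 4.52% in F1VG and 3.71% in F1GV. The checks thus did not all point one way, since the share was lower both in the first set, which dropped the requirement in 1 file, and in the sets with more complete listing.

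The level of a lone CpG went with the levels of the first shared CpGs beyond it. Where the flanking CpGs on both sides were below 10%, 147 of 2279 lone CpGs in F1VG (6.45%, 5.51 to 7.53%) and 122 of 2345 in F1GV (5.20%, 4.37 to 6.18%) were methylated at 10% or more. Where 1 flank was below 10% and the other at least 50%, 80.2% (76.4 to 83.4%) of 499 and 79.0% (75.2 to 82.3%) of 500 were. Where both flanks were at least 50%, 96.9% (94.4 to 98.3%) of 321 and 96.6% (93.9 to 98.1%) of 295 were. The state of the flanks thus went with most of the range of lone CpGs.

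**Figure D3:**
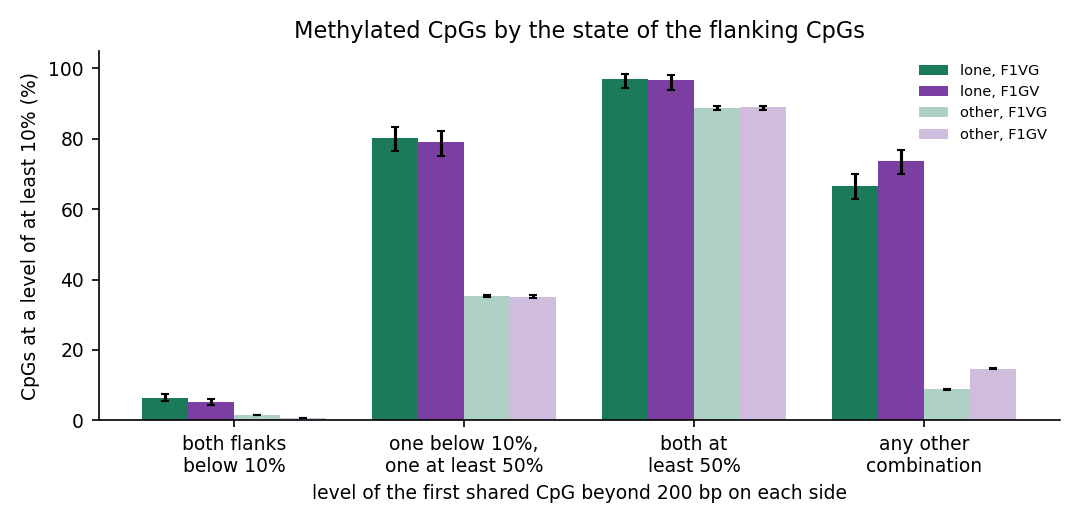
Percentage of lone CpGs (dark) and other CpGs (pale) at a total level of at least 10% in F1VG (green) and F1GV (purple), by the level of the first shared CpG beyond 200 bp on each side. Bars are 95% Wilson intervals. With 1 flank below 10% and 1 at least 50%, lone CpGs reach 80.2% and 79.0% while other CpGs reach 35.3% and 35.1%.

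Other CpGs, measured against the first shared CpG beyond 200 bp in the same way, were less often methylated in each class. The shares were 1.57% in F1VG and 0.684% in F1GV with both flanks below 10%, 35.3% and 35.1% with 1 flank of each kind, and 88.8% and 88.9% with both flanks at least 50%. The gap, in percentage points, was wider where the flanks differed from each other than where both were bare or both methylated. In the remaining combinations of flanks 66.7% and 73.6% of lone CpGs were methylated, against 8.83% and 14.7%. Pearson's r of the level with the mean of both flanks was 0.747 in F1VG and 0.735 in F1GV over the 3783 lone CpGs, and 0.603 and 0.622 over 5406963 other CpGs. Spearman's rho was 0.641 and 0.643 over lone CpGs, and 0.0423 and 0.0454 over other CpGs, so the gap depended on the measure.

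Highly methylated lone CpGs stood in short methylated surroundings. Around lone CpGs of at least 50%, the mean total level of shared CpGs was 48.6% in F1VG and 47.0% in F1GV at 201 to 400 bp, 23.1% and 22.3% at 601 to 800 bp, and 9.51% and 9.16% at 1801 to 2000 bp. Around lone CpGs below 10% it stayed between 3.20 and 3.65% in F1VG and between 3.19 and 3.63% in F1GV at all distances. Shared CpGs that were not lone themselves lay within 2000 bp of 3780 lone CpGs. Of these 3780, unselected for level, 53.2% were above the mean of such neighbours in F1VG and 57.2% in F1GV.

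**Figure D4:**
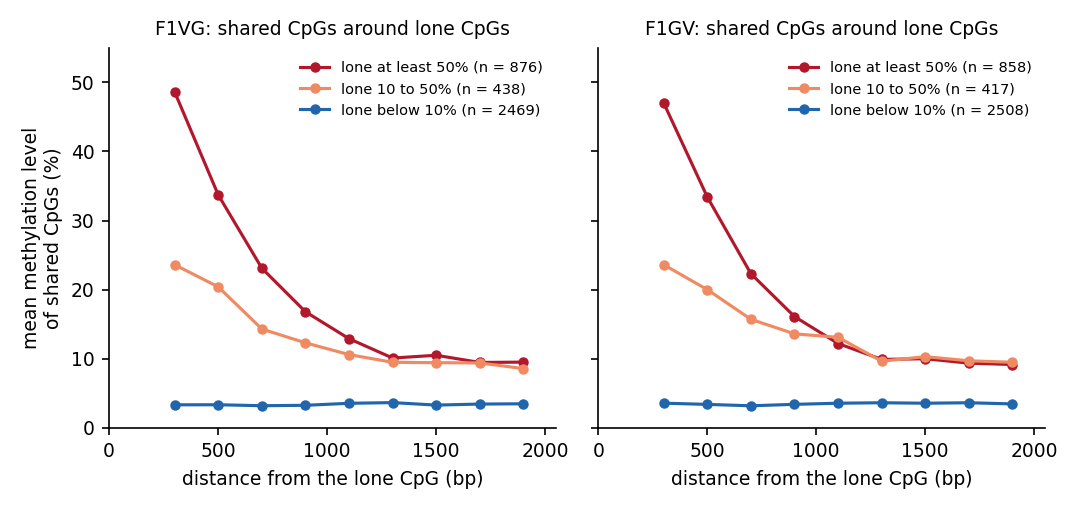
Mean total methylation level (%) of shared CpGs against their distance from a lone CpG in bins of 200 bp (points at bin centres), for lone CpGs of at least 50% (red), 10 to 50% (orange) and below 10% (blue), in F1VG (left) and F1GV (right). The red curve falls from 48.6% to 9.51% in F1VG and from 47.0% to 9.16% in F1GV, and the blue curve stays flat below 4%.

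A few highly methylated lone CpGs had bare flanks. Of 860 lone CpGs with a pooled level of at least 50%, 35 had flanking CpGs below 10% on both sides. By single library, 33 of 876 lone CpGs of at least 50% had such flanks in F1VG and 40 of 858 in F1GV. Among other CpGs of that level, 1667 of 37982 did in F1VG and 1646 of 37610 in F1GV. Bare flanks were thus about as frequent at other highly methylated CpGs, a few of which lacked a flank within 2000 bp. The deepest of the 35 was SCAFFOLD28 position 911528, with 53 of 74 methylated reads in F1VG and 45 of 107 in F1GV, between flanks of 1.45% and 1.37% in F1VG and 0% and 1.89% in F1GV. Its V level was 66.7% in F1VG and 18.9% in F1GV, while its G level was 83.3% and 81.1%. SCAFFOLD27 position 1288126 had 68 of 76 methylated reads in F1VG and 83 of 90 in F1GV, with no flank above 9.72%. SCAFFOLD1 position 2219934 had 63 of 81 and 60 of 74, with no flank above 2.61%. In these 3 cases the flanking CpGs lay 312 to 1240 bp away.

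Allele-specific methylation (ASM) was tested at each CpG by a two-sided Fisher's exact test of V against G reads within a library, with Benjamini-Hochberg adjustment over the 72225 shared CpGs with a level of at least 10% pooled over alleles and libraries. An adjusted p under 0.05 made an ASM call. The level filter kept 1265 lone CpGs (33.4%), against 1.28% of other CpGs, and the 2518 remaining lone CpGs were not tested. In F1VG 129 lone CpGs were called (10.2%, 8.65 to 12%), against 15.4% of all tested CpGs. In F1GV 164 were called (13.0%, 11.2 to 14.9%), against 18.1% of all tested CpGs. ASM calls were thus fewer among lone CpGs than in the background in both libraries. This order depended on the level filter: without it, over all shared CpGs, 1.03% of lone CpGs in F1VG and 1.72% in F1GV were called, against 0.0885% and 0.123% of all, and lone CpGs reach the level more often.

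The share was below the background for V in both libraries and for G in F1VG. V was higher at 80 lone CpGs in F1VG (6.32%, background 10%) and at 95 in F1GV (7.51%, background 13.1%). G was higher at 49 in F1VG (3.87%, background 5.40%) and at 69 in F1GV (5.45%, background 4.97%). At an unadjusted p under 0.05 there were 250 lone CpGs in F1VG (19.8%, against 24.9% of all tested CpGs) and 277 in F1GV (21.9%, against 26%).

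Tested lone CpGs differed from other tested CpGs in level and depth, both of which bear on the chance of a call. Of the tested lone CpGs, 36.0% had a pooled level of at least 80%, where few calls were made, against 30.1% of other CpGs. The order was the reverse from 10 to 20%, a class with 9.25% of lone CpGs and 25.6% of other CpGs. There, too, calls were few, at 9.14% of other CpGs in F1VG and 11.6% in F1GV. The levels thus differed in both directions, and their part in the lower share of calls was not tested. From 20 to 50%, 81 of 274 lone CpGs were called in F1VG (29.6%, 24.5 to 35.2%) and 90 in F1GV (32.8%, 27.6 to 38.6%), against 40.5% and 49.2% of other CpGs. At levels from 20 to 80% and with 24 or more reads on the shallower allele, 19 of 63 were called in F1VG (30.2%, 20.2 to 42.4%) and 53 of 192 in F1GV (27.6%, 21.8 to 34.3%), against 35.9% and 36.4%. The lone share was lower in each depth class, and at the highest depth in F1VG its interval held the share of other CpGs.

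Calls in a library were mostly of the same sign in the other. The sign of Va minus Ga was kept in F1GV at 113 of the 129 lone CpGs called in F1VG (87.6%, 80.8 to 92.2%), with a median of 59.2 percentage points in F1VG and of 39.6 in the called direction in F1GV. It was kept in F1VG at 137 of the 164 called in F1GV (83.5%, 77.1 to 88.4%), with medians of 53.6 and 37.4. The corresponding shares of other CpGs were 82.2% and 81.2%. At most called lone CpGs the allele of the same species was thus the more methylated one, whichever parent had passed it on. The calls were chosen on the library with the larger median.

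Both libraries called 67 lone CpGs (5.30%, background 8.34%), 65 of them with the same sign (5.14%, background 8.09%) and 2 with opposite signs (0.158%, background 0.246%). Of the 65, V was higher at 39 and G at 26. The less methylated allele had a median level of 5% over both libraries, and at 13 of the 65 (20%, 12.1 to 31.3%) it had no methylated read in either. Among the 5781 other CpGs called in this way V was higher at 4136, and the less methylated allele had no methylated read at 1474 (25.5%), a share inside the interval of the lone CpGs. Such an allele may carry the CpG unmethylated or may lack it, as a TpG there would read as a converted CpG, and without the sequence of both alleles these cannot be told apart.

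**Figure D5:**
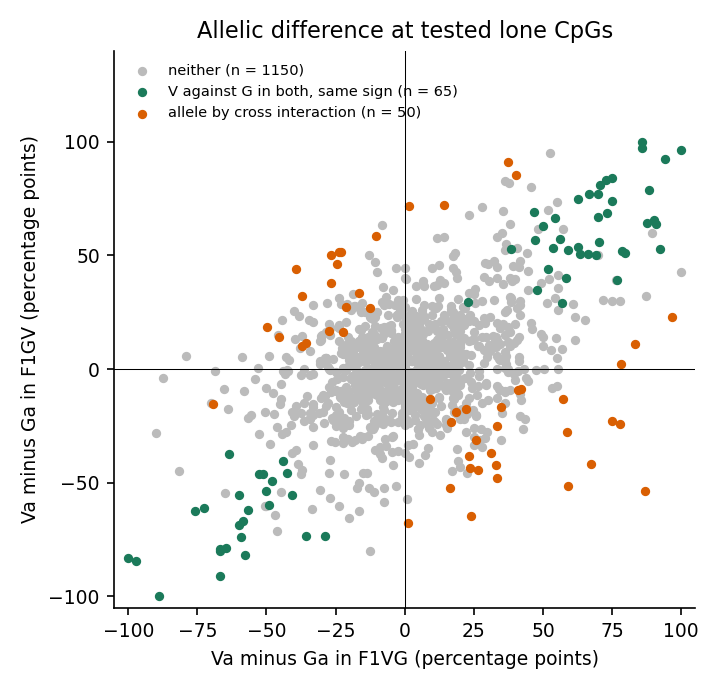
Va minus Ga in F1VG (horizontal) and F1GV (vertical), in percentage points, for the 1265 tested lone CpGs. Green points (65) were called V against G in both libraries with the same sign, orange points (50) passed the test of the interaction of allele and cross, and grey points are the remaining 1150. Green points lie in the upper right and lower left corners, and most orange points lie in the upper left and lower right.

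The CpGs most strongly higher on V were on SCAFFOLD247, SCAFFOLD242, SCAFFOLD263, SCAFFOLD43 and SCAFFOLD3. At SCAFFOLD247 position 186565, the methylated V reads were 12 of 14 in F1VG and 19 of 19 in F1GV, and the methylated G reads 0 of 48 and 2 of 70, so that V had far fewer reads than G (two-sided Fisher's exact test, adjusted p = 4.32e-09 and 6.66e-15). At SCAFFOLD242 position 175068, the methylated V reads were 17 of 24 and 17 of 21 and the methylated G reads 0 of 28 and 0 of 33 (adjusted p = 6.99e-07 and 6.10e-09 by the same exact test). At both, 1 flanking CpG showed the same difference, with Va minus Ga of 77.8 and 84.8 points beside the former and 75 and 74.1 beside the latter.

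At SCAFFOLD263 position 6626, the methylated V reads were 15 of 17 in F1VG and 15 of 19 in F1GV, and the methylated G reads 0 of 18 and 0 of 25 (exact test, adjusted p = 1.63e-06 and 4.64e-07). Its flanks were methylated on both sides, from 56.8 to 85.7%. Va minus Ga was 35.6 and 65.2 points at the flank 779 bp away, and -18.2 and -4.69 points at the flank on the other side. SCAFFOLD43 position 44674, in contrast, had flanks of at most 7.35%, while the methylated V reads were 12 of 14 and 18 of 18 and the methylated G reads 0 of 20 and 0 of 23 (exact test, adjusted p = 5.34e-06 and 3.45e-10). At SCAFFOLD3 position 3582771, also between flanks of at most 7.32%, the methylated V reads were 30 of 38 and 37 of 52 and the methylated G reads 3 of 34 and 5 of 33 (exact test, adjusted p = 6.23e-08 and 8.92e-06). The alleles did not overlap across the libraries at any of these 5 CpGs, which their choice by small p-values in both libraries largely fixed.

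The CpGs most strongly higher on G began with SCAFFOLD20 position 1282375, where the methylated V reads were 0 of 28 in F1VG and 1 of 35 in F1GV, and the methylated G reads 36 of 37 and 28 of 32 (exact test, adjusted p = 1.57e-14 and 1.71e-11). The flanking CpG 231 bp away was also higher on G, with Va minus Ga of -64.7 and -78.6 points. At SCAFFOLD7 position 442342 the V allele was partly methylated, in 25 of 63 and 14 of 42 reads, and G in 39 of 44 and 68 of 73 (exact test, adjusted p = 8.29e-06 and 7.27e-10). Its flank 214 bp away differed by -60.6 and -84.6 points. In both cases the shared direction thus reached beyond the length of a read.

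At SCAFFOLD34 position 904036, the methylated V reads were 0 of 25 and 1 of 18 and the methylated G reads 10 of 10 and 16 of 18 (exact test, adjusted p = 2.82e-07 and 1.16e-05), and 1 flank differed by -92.3 and -81.0 points. At SCAFFOLD820 position 38921, the methylated V reads were 0 of 10 and 1 of 30 and the methylated G reads 19 of 25 and 23 of 35 (exact test, adjusted p = 6.52e-04 and 1.70e-06), and 1 flank differed by -81.5 and -93.3 points. SCAFFOLD6 position 1764560 had no such flank, with 2 of 29 and 1 of 29 methylated V reads, 12 of 18 and 17 of 29 methylated G reads (exact test, adjusted p = 3.72e-04 and 9.36e-05), and flanking differences between -10.9 and 8.80 points. Thus 4 of these 5 CpGs had a flank that differed strongly in the same direction.

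Over all ASM lone CpGs, the sign was only partly shared with the surroundings. The mean Va minus Ga of both flanks had the sign of the lone CpG at 77 of 119 called in F1VG (64.7%, 55.8 to 72.7%) and at 106 of 159 in F1GV (66.7%, 59.0 to 73.5%), close to the 65.5% and 68.3% of other CpGs. Of the 65 lone CpGs called in both libraries with the same sign, 20 (30.8%) had at least 1 flanking CpG called in the same way, against 26% of other CpGs. All 24 of these flanking calls had the sign of the lone CpG, as had 1621 of 1671 (97.0%) at other CpGs. Some of these flanking CpGs were themselves among the 65, as beside SCAFFOLD20 position 1282375 and SCAFFOLD242 position 175068. Such pairs were counted from both ends, so the counts are not independent. Among the 65, 11 had flanks below 10% on both sides, so that the lone CpG differed between the alleles where its neighbours were bare. No such count is given here for other CpGs called in this way, so it does not set lone CpGs apart.

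The reciprocal design asks whether an allelic difference follows the species or the parent. At the same 72225 CpGs the interaction of allele and cross was tested by likelihood ratio, with Benjamini-Hochberg adjustment. It passed at 50 of 1265 lone CpGs (3.95%, 3.01 to 5.17%, background 4.73%), with the change toward the maternal allele at 28 (2.21%, background 2.09%) and toward the paternal allele at 22 (1.74%, background 2.64%). The share of lone CpGs was thus near the background. The sign of Va minus Ga was opposite between the libraries at 42 of the 50, and the difference was at least 20 points in both at 23. A call requires Va minus Ga to change between the libraries, which favours opposite signs. No such counts are given here for other CpGs, so these do not set lone CpGs apart. No lone CpG had its maternal allele at 50% or more and its paternal allele below 10% in both libraries, and none had the reverse (0 of 3783 each, 95% Wilson upper bound 0.101%). These parental states were found at 8 and 15 of 5527709 other CpGs, so the number of lone CpGs is too small to show a share of that size. At 21 lone CpGs (0.555%) V was at 50% or more and G below 10% in both, against 0.0352% of other CpGs, and at 12 (0.317%) the reverse held, against 0.0150%. These shares are over all CpGs, methylated or not. A total level of at least 50% was itself more frequent among lone CpGs, at 23.2% in F1VG and 22.7% in F1GV, against 0.687% and 0.680%.

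The smallest interaction p was at SCAFFOLD24 position 1328474, where 33 of 38 V reads were methylated in F1VG and 5 of 25 in F1GV, and 0 of 10 and 14 of 19 G reads (likelihood ratio test, adjusted p = 8.79e-08, and Zelen's exact test, p = 1.23e-09). Among the assigned reads the maternal allele was thus the more methylated one in both libraries. The total reads of this CpG were 83 in F1VG and 99 in F1GV, so many of them had no assigned allele. Its flanks did not follow, with Va minus Ga between -20.0 and 7.74 points. At SCAFFOLD7 position 1835963, the methylated V reads were 20 of 36 and 0 of 41 and the methylated G reads 11 of 28 and 23 of 44 (likelihood ratio test, adjusted p = 1.19e-05, and Zelen's exact test, p = 4.78e-07). At SCAFFOLD10 position 1376553, the methylated V reads were 30 of 36 and 21 of 38 and the methylated G reads 24 of 40 and 44 of 47 (likelihood ratio test, adjusted p = 5.40e-04, and Zelen's exact test, p = 1.09e-05). Reads that are PCR copies of few molecules enter such tests as separate reads, and their part was not tested.

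The total level differed between the libraries at few lone CpGs. By two-sided Fisher's exact test of the total reads, adjusted over 67810 CpGs, 63 of 1257 lone CpGs differed (5.01%, 3.94 to 6.36%), against a background of 10%. The level was higher in F1VG at 36 (2.86%, background 4.61%) and in F1GV at 27 (2.15%, background 5.40%). The median absolute difference at the 63 was 31.0 percentage points. Tested lone CpGs had a mean total level of 63.7% in F1VG and 61.7% in F1GV, above the 55.4% and 54.8% of other tested CpGs, and were less deeply covered, and the part of either in the lower share was not tested.

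At SCAFFOLD164 position 68981 the total was 51 of 56 methylated reads in F1VG and 24 of 66 in F1GV (exact test, adjusted p = 7.58e-08), and the change lay mostly on the V allele, with 22 of 24 and 2 of 36 reads. At SCAFFOLD269 position 79829 the counts were 39 of 42 and 25 of 56 (exact test, adjusted p = 3.25e-05), and at SCAFFOLD6 position 1738982 they were 15 of 43 and 0 of 53 (exact test, adjusted p = 7.98e-05). These 3 had the smallest p among those higher in F1VG.

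Among those higher in F1GV, SCAFFOLD1 position 3229990 had 7 of 33 methylated reads in F1VG and 51 of 65 in F1GV (exact test, adjusted p = 7.82e-06). There both alleles were higher in F1GV, V with 6 of 15 against 33 of 39 reads and G with 1 of 18 against 16 of 24. SCAFFOLD2 position 1077959 had 9 of 59 and 41 of 67 (exact test, adjusted p = 1.76e-05), and SCAFFOLD10 position 2163300 had 21 of 77 and 54 of 81 (exact test, adjusted p = 5.41e-05). With a single library per cross, a difference between crosses and a difference between libraries cannot be told apart.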

How the data were processed

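WGBS-seq libraries of F1VG and F1GV (1 each) were analysed. After quality trimming, the authors used BWA to map single-end reads to both species' converted genomes (version 1.0), retained unique hits and split reads by allele at species variants. CASAVA 1.8.2, FastQC and Trimmomatic are also named in the submitters' processing notes. The deposited values are raw counts of unconverted and converted reads at each CpG (total, V and G), not normalized, for CpGs with at least 8 reads per allele. The study states that reference bias was corrected without describing the step, and whether counts sum both strands was not tested. V and G counts together exceeded the total at 0 lone CpGs in F1VG and 2 in F1GV, which were kept.

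Counts summed to 286833473 in F1VG and 371795018 in F1GV. A CpG was treated as methylated at 10% or more. Levels, 95% Wilson intervals, Katz intervals of ratios, Fisher's exact tests (two-sided) and likelihood ratio tests (1 degree of freedom) used Numba 0.67.0, pandas 2.3.3, SciPy 1.17.1 and NumPy 2.4.6 in Python 3.11.15, and Matplotlib 3.10.9 drew the figures. Benjamini-Hochberg adjustment ran over all tested CpGs, lone or not. For the 3 CpGs with the smallest interaction p, an exact test after Zelen, which compares the odds ratios of both libraries, was added later. The tests were tested on simulated data. Intervals cover counting only, and any PCR copies count as separate reads. Flanking CpGs are the first shared CpGs beyond 200 bp and within 2000 bp on each side.

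The members, limits and tests were chosen with earlier results of these data known. CpGs named are the 5 higher on V and the 5 higher on G by the larger adjusted p of the 2 libraries, the 3 with the smallest interaction p, the 3 with the smallest p for the total level in each direction, the 3 at 100% pooled level, the 3 deepest methylated ones with bare flanks and the 3 with the longest distance. Alternatives were another level, depth, distance, neighbour rule, comparison set, level filter, threshold and interaction test. No genome or annotation of the v1.0 build was used, so no sequences or gene names are given.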

Additional observations from a re-analysis of the deposited data

Results flagged for a closer look

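The allelic difference, Va minus Ga, differed between F1VG and F1GV by the likelihood ratio test of the interaction between allele and cross at 50 lone CpGs, with a median absolute change of 67.8 percentage points. The 3 smallest unadjusted p-values of this test were 5.42e-11 at SCAFFOLD24 position 1328474, 2.72e-08 at SCAFFOLD7 position 1835963 and 3.30e-06 at SCAFFOLD10 position 1376553. At an unadjusted p under 0.05 the test passed at 218 of 1265 lone CpGs (17.2%), against 19.2% of all tested CpGs. Each of these compares the reads of 2 libraries.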

How the results depend on the processing

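The ratio of the lone share to the other share stayed above 1 under each alternative run. The share of lone CpGs called was below that of all tested CpGs for the ASM, interaction and total tests under each alternative except the one without the level filter, where it was above for all 5 (1.03% against 0.0885%, 1.72% against 0.123%, 0.555% against 0.0504%, 0.0793% against 0.00842% and 0.370% against 0.0313%). Of the values behind the comparisons, 31 stayed within their interval or within 1.5 times the count and 69 did not. Those of the share of lone CpGs at 10% (34.7% in F1VG, 33.7% in F1GV) and of its ratio to other CpGs (13.8 and 20.2) that moved were, in that order, 30.3%, 29.8%, 31.0 and 30.8 at a level of 20%, 23.2%, 22.7%, 33.7 and 33.3 at 50%, 37.3%, 36.7%, 20.2 and 27.9 with 16 reads per allele, 37.5%, 36.4%, 15.2 and 22.7 with no CpG within the read length, 29.1%, 27.3%, 11.5 and 16.2 within 300 bp, 16%, 14.7%, 6.28 and 8.72 within 500 bp, and 27.5%, 26%, 11 and 15.8 when only neighbours in both files counted. Chosen after seeing the data, they were 7.55%, 6.6%, 2.99 and 3.97 where all neighbours were in both files, 29.4%, 27.3%, 11.6 and 16.4 with at least 20 listed CpGs of which at most 10% were in a single file, and 58.0%, 56.9%, 22.6 and 33.0 on scaffolds 1 to 50. Against other CpGs within 2000 bp of a lone CpG, also chosen after seeing the data, the ratios were 3.36 and 3.52. The counts of lone CpGs called in F1VG, in F1GV, in both with the same sign, for the interaction and for the total level (129, 164, 65, 50 and 63) became 39, 65, 21, 3 and 14 without the level filter, which puts all shared CpGs into the adjustment. They were 63, 58, 31, 22 and 24 with 16 reads per allele, 454, 575, 221, 167 and 227 with no CpG within the read length, and 63, 72, 32, 21 and 27 within 300 bp, which change how many lone CpGs there are. At an adjusted p under 0.01 the counts in F1VG, in F1GV, for the interaction and for the total level became 81, 108, 13 and 32. A z test of the interaction called 73. For F1GV the share of methylated lone CpGs was 7.28% between bare flanks and 98.7% between methylated ones at limits of 20 and 80%, and 99.3% between methylated flanks within 500 bp. Apart from the changed numbers of CpGs, causes were not tested. No paired analysis was possible because there was 1 library per cross, and no replicate could be left out. Medians of 15 to 22 reads per allele limit which allelic differences at single lone CpGs were detectable at this depth.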

Other observations

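Most lone CpGs stood by themselves, and 608 followed each other along a scaffold, with no other shared CpG between them, in 290 runs of at least 2. Of the 318 neighbouring pairs in these runs, both members were below 10% at 144 in F1VG and 143 in F1GV, both were at least 50% at 74 and 69, and 1 was below 10% and the other at least 50% at 26 and 28. On SCAFFOLD37, 5 lone CpGs from position 597279 to 600427 had total levels of 90.7%, 86.7%, 0%, 76.5% and 0% in F1VG and 80%, 84.6%, 1.64%, 66.7% and 0% in F1GV, so that methylated and bare CpGs alternated in the same way in both libraries. On SCAFFOLD35, 4 lone CpGs from 1511707 to 1512598 were all methylated, at 41.2%, 87.8%, 80% and 90.6% in F1VG and 50.0%, 92.2%, 83.8% and 92.7% in F1GV. The run of 5 on SCAFFOLD50 from 384824 to 388734 was bare, with no total level above 6.82%.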
